A study of Mus musculus with 9 samples.

Results

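The transcripts described here came from 6 genes, *Igf2bp1*, *Igf2bp2*, *Igf2bp3*, *Lin28b*, *Hmga1* and *Hmga2*, chosen by name from the 48820 genes of the deposited table. They are called oncofoetal because they are best known from the embryo and from tumours. The RNA came from hearts of untreated wild-type C57BL/6J mice, all labelled male, with 3 biological replicates each at E18.5d (embryonic day 18.5), P1d (postnatal day 1) and P7d (postnatal day 7). No gene was deleted and no agent was given in any of the 9 hearts, so the stages differed by age alone as far as the labels go. The question was how the level of each gene changed from the last day or so before birth through the first week after it, the window in which the mouse heart leaves the foetal programme.

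IGF2BP1, IGF2BP2 and IGF2BP3 bind mRNA, *Igf2* mRNA among others, and protect bound transcripts from decay or hold back their translation; they are also known as readers of N6-methyladenosine in RNA. LIN28B binds the precursors of the let-7 microRNAs and blocks their maturation, so that let-7 is low where LIN28 proteins are abundant. HMGA1 and HMGA2 are small proteins that bind AT-rich DNA and alter chromatin. Let-7 in turn is known to silence *Lin28b*, *Hmga2* and *Igf2bp1* through their 3′ untranslated regions, and this circuit is best known from embryos, germ cells, foetal liver stem cells and tumours.

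The mature let-7 sequences are shown because their seed (bases 2 to 8, in capitals) is what a target transcript pairs with. They were taken from RefSeq (GRCm38.p6), in which 10 of the 11 mature let-7 and miR-98 names had the same seed, and 3 of the 11 are printed with *mmu-let-7j*, the exception.
mmu-let-7a-5p: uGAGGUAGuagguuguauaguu
mmu-let-7g-5p: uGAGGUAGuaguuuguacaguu
mmu-miR-98-5p: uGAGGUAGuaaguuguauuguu
mmu-let-7j: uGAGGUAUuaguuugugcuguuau

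The letters CTACCTC, the complement of the common seed, were searched on the transcribed strand in the longest annotated 3′ untranslated region of each gene (GENCODE M21, GRCm38). All 6 genes held them, as did 9.02% of the 21037 protein-coding genes with such a region. *Igf2bp1*, *Lin28b* and *Hmga2* each held 4 matches, and *Igf2bp2*, *Igf2bp3* and *Hmga1* held 1 each. At least 4 matches, a number set after the counts were seen, were found in 12 of all genes (0.057%), and 3 of these 12 were *Igf2bp1*, *Lin28b* and *Hmga2*. Long regions have more room for a match, and among the 12 the regions of *Zbtb37* and *D10Wsu102e* had 16999 and 122583 bases. Of the genes within 25% of the length of the *Igf2bp1* region (6337 bases), *Igf2bp1* included, 32.2% had a match and 0.264% had at least 4. For lengths near those of *Lin28b* (4445 bases) and *Hmga2* (3014 bases), 0.238% and 0.138% had at least 4, again with the gene itself counted.

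The first match after the stop codon in each gene is printed because it shows how alike the 6 sites are. Capitals mark the bases that match the seed, with the A that often follows such a site where it is present.
Igf2bp1 site 1: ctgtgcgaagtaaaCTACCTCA
Igf2bp2 site 1: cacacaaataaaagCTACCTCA
Igf2bp3 site 1: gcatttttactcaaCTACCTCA
Lin28b site 1: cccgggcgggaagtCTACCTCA
Hmga1 site 1: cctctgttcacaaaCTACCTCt
Hmga2 site 1: ccgacattcaatttCTACCTCA

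In GRCm38 the printed bases lie in the 3′ untranslated regions, at chr11:95961778-95961799 for *Igf2bp1*, chr16:22059473-22059494 for *Igf2bp2* and chr6:49086787-49086808 for *Igf2bp3*, all on the minus strand. Those of *Lin28b* (chr10:45381022-45381043, minus strand) and *Hmga2* (chr10:120364224-120364245, minus strand) hold a match that starts at base 36 and base 58 after the stop codon, and that of *Hmga1* lies at chr17:27563278-27563299 on the plus strand. The 8-base form with the final A was present 3 times in *Igf2bp1*, 1 time each in *Igf2bp2*, *Igf2bp3*, *Lin28b* and *Hmga2*, and not in the *Hmga1* region. Of all genes with such a region, 3.06% held at least 1. A match of letters is no evidence of binding. Mature let-7 was not measured, and the 12 let-7 and miR-98 hairpin genes in the table were listed at 0 in all 9 hearts.

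The values are FPKM (fragments per kilobase of transcript and per 1e6 mapped fragments), so that levels of different genes can be compared per length. From the steps between low values, the libraries held 25.5 to 45.0 times 1e6 fragments each. The hearts expressed all 10 cardiomyocyte markers, summing to 35538 to 45491 FPKM. Airway and lung markers (8 genes) summed to 91.1, 252 and 492 FPKM in E18.5d replicates 1 and 2 and P1d replicate 1, and the other 6 hearts had sums of 3.25 FPKM or less. Nearly all of the high sums came from *Scgb1a1*, *Scgb3a1* and *Scgb3a2*. *Sftpc*, *Sftpb*, *Sftpa1* and *Nkx2-1* were at 0.63 FPKM or less in every heart. These genes were named after their values were seen. The erythroid sum (16 genes) ranged from 8425 to 22755 FPKM before birth, from 12741 to 24737 at P1d and from 8558 to 10418 at P7d. Although all hearts are labelled male, *Xist* was at 58.0 FPKM or more, with 4 Y-linked genes at 0, in 2 hearts of E18.5d (replicates 1 and 3) and 2 of P7d (replicates 2 and 3). It was at 0.11 FPKM or less in the other 5, which include every P1d heart. In comparisons with P1d, stage and *Xist* state therefore partly coincide.

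In log2(FPKM + 1) and limma with all 9 hearts in 1 fit, *Igf2bp1* and *Hmga2*, 2 of the 6 genes, were lower at P1d than before birth. By P7d, 5 of 6 (all but *Lin28b*) had fallen below E18.5d, and 3 of 6 (the *Igf2bp* genes) below P1d. None was higher in any comparison, nor at an unadjusted p under 0.05 in limma. A call was an adjusted p under 0.05, with Benjamini-Hochberg adjustment over all genes of the fit. Lower calls were common in the whole transcriptome: of the 13618 genes that averaged 1 FPKM or more, 27.6% were lower and 18.4% higher at P1d against E18.5d, 36.9% and 12.5% at P7d against E18.5d, and 28.6% and 15.5% at P7d against P1d. Median of ratios, another scaling, gave 20.9% lower and 21.3% higher at P7d against E18.5d. *Lin28b* and *Hmga2*, with means of 0.374 and 0.517 FPKM, fell below that filter and were tested among the 27255 genes above 0 in at least 1 heart, in which lower calls made up 14.5%, 19.5% and 14.3%. The comparisons share hearts, so their results for a gene are not independent. In bulk RNA, fewer cells that express a gene and less of its RNA per cell cannot be told apart.

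**Figure D1:**
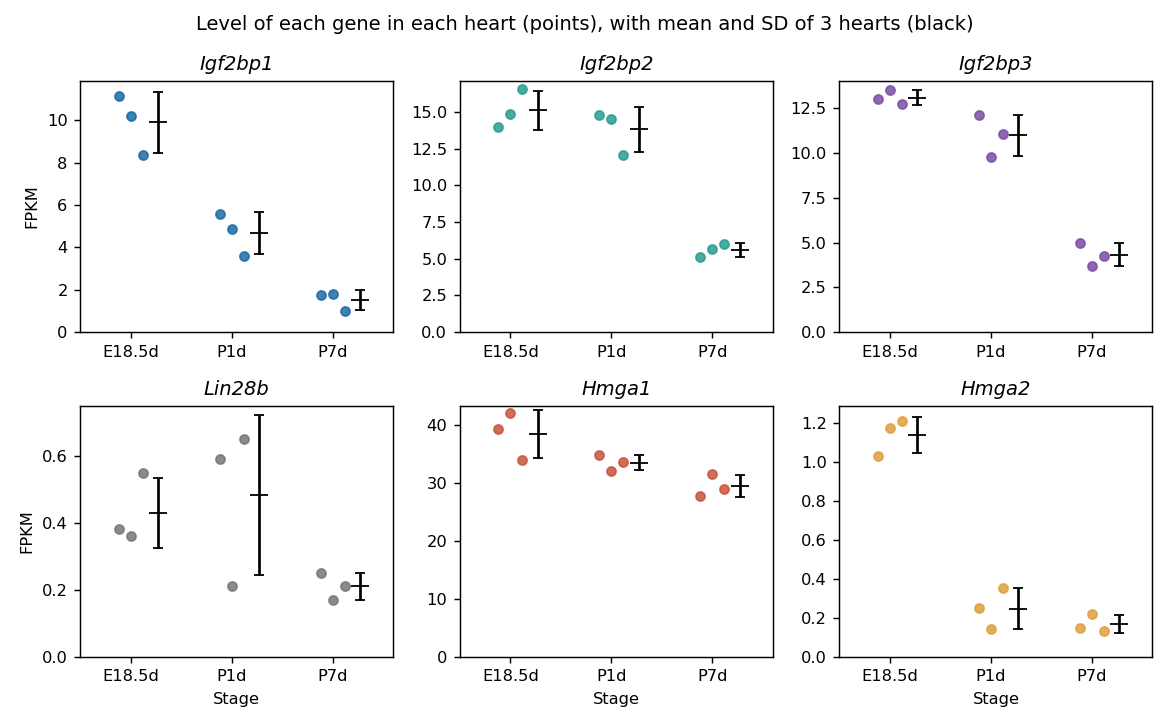
Level of each of the 6 genes in FPKM (vertical axis, from 0, different in each panel) against stage, with 1 coloured point per heart and the mean ± SD of 3 hearts in black. *Igf2bp1* stepped down from a mean of 9.91 to 4.68 and then 1.52 FPKM, while *Hmga2* was at 1.14 FPKM at E18.5d and at 0.35 or below in the 6 hearts after birth.

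*Igf2bp1* (ENSMUSG00000013415.9, chr11:95957163-96005940, minus strand) encodes the family member best known for its restriction to foetal life. Its level was 11.2, 10.2 and 8.35 FPKM in the E18.5d hearts, 5.56, 4.88 and 3.6 at P1d, and 1.77, 1.8 and 0.99 at P7d. Every P1d heart was below every E18.5d heart, as in 32.3% of the genes tested, and every P7d heart below every P1d heart, as in 34.3%. The log2 change was −0.95 ± 0.17 (SE) at P1d against E18.5d (limma adjusted p = 0.0019) and −1.17 ± 0.17 at P7d against P1d (limma adjusted p = 0.00067). From E18.5d to P7d it was −2.12 ± 0.17 (limma adjusted p = 1.71e-05), the 33rd lowest of 13618 genes, and the mean FPKM was 84.7% lower. A pseudocount of 1 FPKM is not small beside the P7d levels, so the log2 changes to P7d understate the folds. In mean FPKM these were 3.08 from P1d and 6.52 from E18.5d. Of the genes tested, 417 (3.06%) were lower at both steps, *Igf2bp1* among them. Without the 3 hearts high in airway markers, an alternative chosen after seeing the data, the change at P1d was −0.85 and no longer called (limma adjusted p = 0.0758), in a fit with 1 heart left at E18.5d, assumed to vary like the others, and 2 at P1d.

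*Igf2bp2* (ENSMUSG00000033581.16, chr16:22059009-22163299, minus strand), the member that is also found in adult tissues, was at 13.96, 14.84 and 16.55 FPKM at E18.5d, 14.8, 14.5 and 12.1 at P1d, and 5.13, 5.65 and 6.04 at P7d. The E18.5d and P1d hearts overlapped, and the P7d hearts were apart, below all others (45.6% of the genes tested had all P7d hearts below those of E18.5d). The log2 change at P1d was −0.12 ± 0.10 (limma adjusted p = 0.323), and that from P1d to P7d was −1.16 ± 0.10 (limma adjusted p = 3.34e-05). At P7d the mean was 62.9% below that at E18.5d (log2 change −1.29 ± 0.10, limma adjusted p = 1.09e-05).

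*Igf2bp3* (ENSMUSG00000029814.10, chr6:49085223-49214957, minus strand), a foetal and tumour antigen, was at 13.0, 13.5 and 12.8 FPKM at E18.5d, 12.1, 9.80 and 11.0 at P1d, and 5.0, 3.71 and 4.24 at P7d. Each P1d heart lay below each E18.5d heart, as in 32.3% of the genes tested. The log2 change of −0.24 ± 0.10 was not called (limma adjusted p = 0.0819). From P1d to P7d it was −1.18 ± 0.10 (limma adjusted p = 4.17e-05), and from E18.5d to P7d −1.41 ± 0.10 (limma adjusted p = 8.18e-06), a mean 67.1% lower. Of its longest coding transcript, 35.2% (1529 of 4345 bases) overlaps exons of *Malsu1* on the other strand, and whether the counting used strand is not given in the sources used here. *Malsu1* itself averaged 7.59 FPKM before birth, 9.30 at P1d and 4.6 at P7d, and the part of its reads in the *Igf2bp3* values was not tested.

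By P1d the mean of *Igf2bp1* had gone through 62.3% of its decline to P7d, that of *Igf2bp3* through 24.1% and that of *Igf2bp2* through 13.7%. The last 2 values were not shown to differ, since the ratio of *Igf2bp2* to *Igf2bp3* overlapped between E18.5d and P1d. A contrast chosen after these values were seen, the log2 change of the second step minus that of the first, was −1.04 ± 0.17 for *Igf2bp2* (limma adjusted p = 0.00102) and −0.94 ± 0.18 for *Igf2bp3* (limma adjusted p = 0.00239). It was −0.23 ± 0.30 for *Igf2bp1* (limma adjusted p = 0.574), whose P7d level is low enough for the pseudocount of 1 FPKM to shrink its second step. This contrast was called in the lower direction for 23.8% of all genes tested. The 2 steps span unequal times, the one from P1d to P7d being the longer, so neither the contrast nor the percent of decline compares rates.

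Ratios of paralogs within a heart do not depend on how the columns were scaled. *Igf2bp2* over *Igf2bp1* was 1.25, 1.45 and 1.98 at E18.5d, 2.67, 2.98 and 3.36 at P1d, and 2.90, 3.14 and 6.10 at P7d. No ratio after birth was as low as any before birth, and P1d and P7d overlapped. The mean log2 ratio was 0.96 higher at P1d and 1.32 higher at P7d than at E18.5d (exact two-sided permutation p = 0.1 for each, the smallest that 3 hearts against 3 allow), and 0.35 higher at P7d than at P1d (exact permutation p = 0.5). *Igf2bp3* over *Igf2bp1* moved likewise, by 0.84 and 1.13 against E18.5d (exact permutation p = 0.1 for each) and by 0.30 from P1d to P7d (exact permutation p = 0.6). *Igf2bp2* over *Igf2bp3* stayed between 1.03 and 1.52 in all 9 hearts, and its mean log2 ratio differed between stages by at most 0.18, with overlapping hearts (exact permutation p = 0.4 to 0.9).

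Summed over the 3 paralogs, the level was 38.1 ± 0.470 FPKM (SD, n = 3) before birth, 29.5 ± 2.90 at P1d and 11.4 ± 0.399 at P7d, with no overlap between stages. *Igf2bp1* made up 26.0% ± 3.57 of this sum before birth, 15.8% ± 1.99 at P1d and 13.3% ± 3.93 at P7d. *Igf2bp2* made up 39.7%, 46.9% and 49.1%, and *Igf2bp3* 34.4%, 37.4% and 37.6%.

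**Figure D2:**
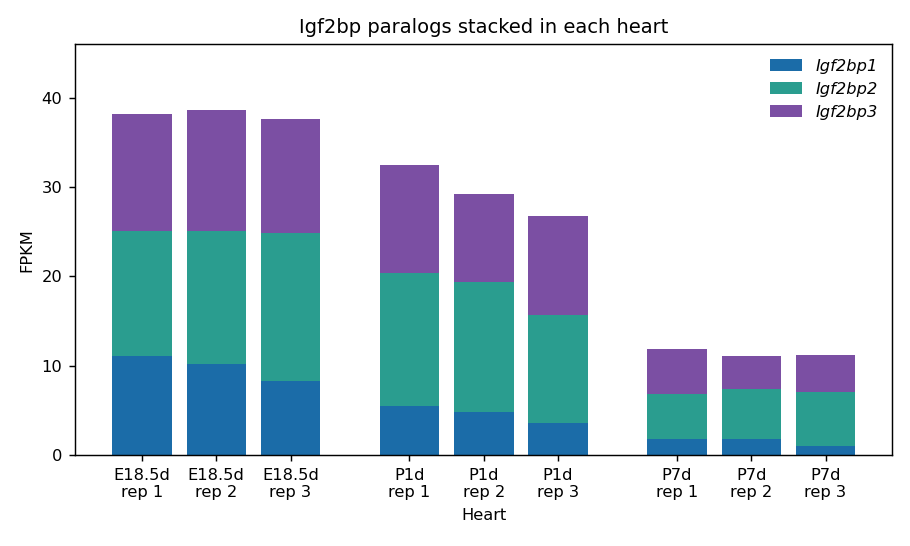
Stacked FPKM (vertical axis) of *Igf2bp1* (bottom), *Igf2bp2* (middle) and *Igf2bp3* (top) in each of the 9 hearts. The stack fell from 37.7 to 38.6 FPKM at E18.5d to 11.2 to 11.9 FPKM at P7d, and the *Igf2bp1* share shrank from 22.2% to 29.3% at E18.5d to 8.78% to 16.1% at P7d.

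*Lin28b* (ENSMUSG00000063804.7, chr10:45376620-45486395, minus strand), the inhibitor of let-7 maturation, was low in all hearts. It was at 0.38, 0.36 and 0.55 FPKM at E18.5d, 0.59, 0.21 and 0.65 at P1d, and 0.25, 0.17 and 0.21 at P7d, or about 29 to 98 fragments per heart on its longest coding transcript. The P1d hearts reached both below and above all E18.5d hearts, with replicate 2 at the level of P7d. The P7d hearts were all below the E18.5d hearts, as in 30.0% of the 27255 genes, but the log2 change of −0.24 ± 0.12 was not called (limma adjusted p = 0.184), nor were those at P1d against E18.5d (0.04 ± 0.12, limma adjusted p = 0.852) and at P7d against P1d (−0.28 ± 0.12, limma adjusted p = 0.133). Without P1d replicate 2, *Lin28b* was called lower at P7d than at E18.5d (−0.24, limma adjusted p = 0.0296) and than at P1d (−0.42, limma adjusted p = 0.00809). Both calls depended on this heart. For the call against E18.5d it acted only through the spread shared by the fit, since the change stayed at −0.24. In a fit of E18.5d and P7d alone *Lin28b* was called as well (limma adjusted p = 0.0429). The mean FPKM at P7d was 51.2% below that at E18.5d. A pseudocount of 1 FPKM is large beside such levels, so the log2 changes understate the folds of *Lin28b*. Its paralog *Lin28a* was at 0.03 FPKM or less in every heart.

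*Hmga1* (ENSMUSG00000046711.15, chr17:27556497-27563674, plus strand) had the highest level of the 6 genes at every stage. It was at 39.2, 42.1 and 33.9 FPKM at E18.5d, 34.7, 32.0 and 33.5 at P1d, and 27.7, 31.5 and 28.9 at P7d. Every P7d heart was below every earlier heart, and E18.5d and P1d overlapped. All P7d hearts were below all E18.5d hearts in 45.6% of the genes tested, and below all P1d hearts in 34.3%. The log2 change was −0.37 ± 0.08 at P7d against E18.5d (limma adjusted p = 0.00525), −0.19 ± 0.08 at P1d against E18.5d (limma adjusted p = 0.0922) and −0.18 ± 0.08 at P7d against P1d (limma adjusted p = 0.106). The call at P7d was lost under median of ratios (−0.19, limma adjusted p = 0.0867), a scaling that moved the median of all genes from −0.17 to −0.02, and under 4 further alternatives. Of the 75-base stretches of its transcript, 64.3% occur also in *Hmga1b*, an annotated near-copy listed at 0 to 0.24 FPKM, so how reads were shared between the copies makes the *Hmga1* level uncertain.

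*Hmga2* (ENSMUSG00000056758.14, chr10:120361275-120476469, minus strand), the paralog best known from stem cells and growth of the embryo, was at 1.03, 1.17 and 1.21 FPKM at E18.5d, 0.25, 0.14 and 0.35 at P1d, and 0.15, 0.22 and 0.13 at P7d. The E18.5d hearts stood at about 92 to 154 fragments, and the hearts after birth at 13 to 36, with P1d and P7d overlapping. All P1d hearts lay below all E18.5d hearts in 20.9% of the 27255 genes. The mean FPKM was 78.3% lower at P1d than at E18.5d (log2 change −0.78 ± 0.07, limma adjusted p = 0.000317) and 85.3% lower at P7d (−0.87 ± 0.07, limma adjusted p = 0.000146). These log2 changes understate the folds, since a pseudocount of 1 FPKM is large beside such levels. From P1d to P7d the change was −0.09 ± 0.07 (limma adjusted p = 0.447), and 91.8% of the decline in mean had passed by P1d. The second step minus the first was 0.69 ± 0.13 (limma adjusted p = 0.00717), a contrast called in this direction for 10.5% of the 27255 genes.

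*Hmga1* over *Hmga2* was 38.0, 35.9 and 28.0 at E18.5d, 139, 229 and 95.8 at P1d, and 185, 143 and 222 at P7d. The hearts after birth were all above those before it. The mean log2 ratio was 2.10 higher at P1d and 2.42 higher at P7d than at E18.5d (exact permutation p = 0.1 for each) and differed by 0.32 between P1d and P7d (exact permutation p = 0.5).

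**Figure D3:**
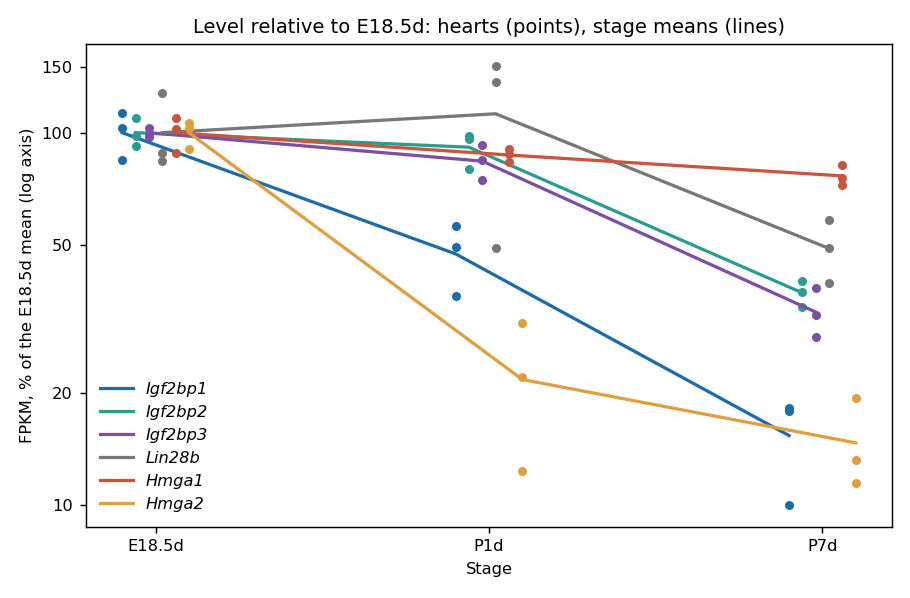
FPKM of each gene as a percent of its E18.5d mean (vertical axis, logarithmic) against stage, with points for hearts and lines through stage means. At P1d *Hmga2* stood at 21.7% and *Igf2bp1* at 47.2%, while *Igf2bp2*, *Igf2bp3* and *Hmga1* stood at 83.8% to 91.4%. At P7d *Hmga1* stood at 76.5%, the 3 *Igf2bp* genes at 15.3% to 37.1% and *Lin28b* at 48.8%. The P1d hearts of *Lin28b* ranged from 48.8% to 151%.

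In order of level per length at E18.5d, *Hmga1* was followed by *Igf2bp2*, *Igf2bp3*, *Igf2bp1*, *Hmga2* and *Lin28b*, with no overlap between neighbours. At P1d the hearts of *Igf2bp2* and *Igf2bp3* overlapped, as did those of *Lin28b* and *Hmga2*, whose means had changed places. At P7d *Lin28b* and *Hmga2* overlapped again, and the other neighbours did not.

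**Figure D4:**
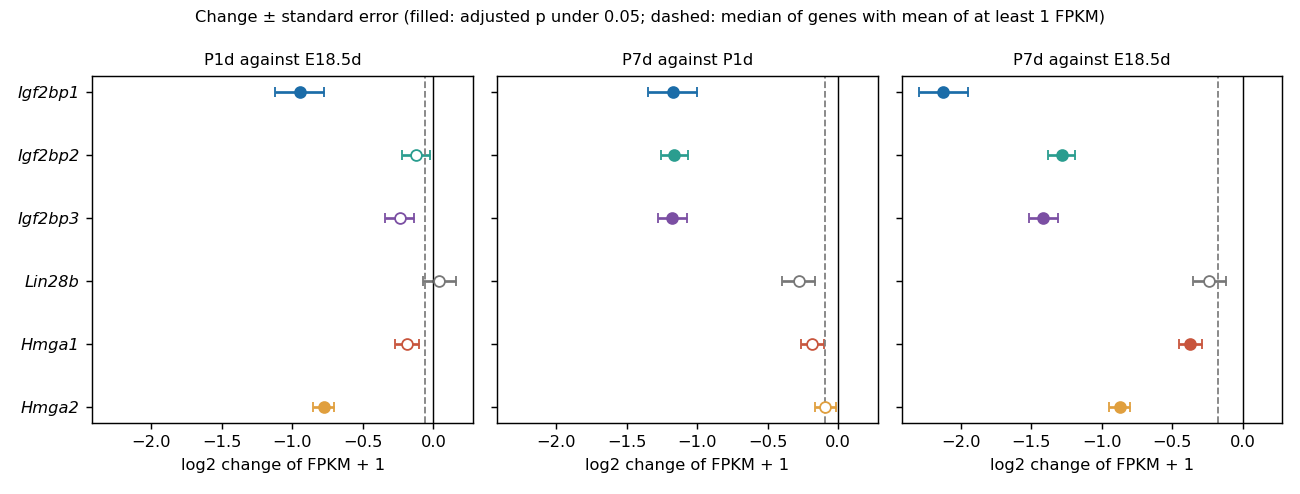
Log2 change of FPKM + 1 (horizontal axis) with its standard error for each gene in the 3 comparisons. Filled points have an adjusted p under 0.05, and the dashed line is the median of the 13618 genes tested, at −0.06, −0.09 and −0.17 from left to right. *Lin28b* and *Hmga2* come from the fit on all genes above 0. The 3 *Igf2bp* genes lie together near −1.2 at P7d against P1d, and at P1d against E18.5d *Igf2bp1* lies to the left of the other 2. The added 1 FPKM shrinks the change most at low levels. From P1d to P7d the mean FPKM fell 3.08-fold for *Igf2bp1*, 2.46-fold for *Igf2bp2* and 2.55-fold for *Igf2bp3*.

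The other genes of the pathways were counted from lists, in the fit on 13618 genes. In these lists a count of none higher also held at an unadjusted p under 0.05 in limma, with 1 exception, a gene of the N6-methyladenosine list. Of the let-7 maturation genes and LIN28 partners, 13 of 15 were tested. At P1d against E18.5d, 3 were higher and 4 lower. The 3 higher genes were *Tut7*, a uridyltransferase that works with LIN28 (log2 change 0.23, limma adjusted p = 0.0253), *Dis3l2*, the nuclease that degrades uridylated let-7 precursors (0.32, limma adjusted p = 0.00531), and *Prkra*, a DICER cofactor (0.29, limma adjusted p = 0.0195), all 3 named after their values were seen. At P7d against E18.5d, 10 were lower and none higher, with a median of −0.35 against −0.17 for all genes. *Tut4*, the other LIN28-dependent uridyltransferase, changed by −0.50 (limma adjusted p = 0.0141), the microRNA effector *Ago2* by −0.50 (limma adjusted p = 0.000158) and *Ago3* by −0.49 (limma adjusted p = 0.0389). The count of 10 fell to 2 under median of ratios.

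Of the known and predicted let-7 targets other than the 6 genes, 29 of 33 were tested, and they went both ways. At P1d against E18.5d, 13 were lower and 3 higher, with a median of −0.23 against −0.06 for all genes. At P7d against E18.5d, 14 were lower and 3 higher, with a median of −0.17, the same to 2 decimals as that of all genes. *Myc*, the transcription factor, fell from 8.83 to 3.41 FPKM on average (−1.16 in log2, limma adjusted p = 0.000181), *Plagl2* from 4.73 to 2.40 (−0.75, limma adjusted p = 8.01e-05) and the cell-cycle phosphatase *Cdc25a* from 10.7 to 6.40 (−0.67, limma adjusted p = 0.000197). The insulin-pathway genes *Irs2* (0.40, limma adjusted p = 0.0115) and *Insr* (0.32, limma adjusted p = 0.0217) and the ubiquitin-conjugating enzyme gene *Cdc34* (0.22, limma adjusted p = 0.0345) were higher. From P1d to P7d, 8 were higher and 8 lower. Genes other than the 6 with the 8-base match (440 tested) were lower in 37.0% and higher in 15.2% at P7d against E18.5d, with a median of −0.15. The 10760 genes with no 7-base match were lower in 37.8% and higher in 13.4%, with a median of −0.16. At P1d against E18.5d the genes with the 8-base match had a median of −0.11 (30.5% lower, 15.9% higher). Those with no 7-base match had −0.06 (28.7% lower, 19.1% higher). At P7d against P1d the medians were −0.03 (26.1% lower, 21.1% higher) and −0.08 (29.0% lower, 16.4% higher), in the same order.

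Of the mRNAs bound by IGF2BP proteins and the proteins found with them in granules, all 15 were tested, and 12 were lower and none higher at P7d against E18.5d, with a median of −0.46. The imprinted RNA *H19* fell most, with means of 2181 and 429 FPKM (−2.34 in log2, limma adjusted p = 1.64e-07). The foetal growth factor gene *Igf2* went from 714 to 231 FPKM (−1.63, limma adjusted p = 2.56e-07) and *Igf2r*, the receptor that clears IGF2, from 340 to 147 FPKM (−1.21, limma adjusted p = 1.49e-05). *Actb*, whose mRNA is the classic cargo of IGF2BP1, was at 1139, 849 and 1179 FPKM at the 3 stages and did not pass the test at P7d against E18.5d (0.05, limma adjusted p = 0.631). Of the writers, readers and erasers of N6-methyladenosine, 14 of 17 were lower and none higher at P7d against E18.5d, with a median of −0.29. The RNA-binding protein genes *Hnrnpc* (−0.72, limma adjusted p = 0.000122) and *Hnrnpa2b1* (−0.60, limma adjusted p = 0.00141) and the methyltransferase gene *Mettl3* (−0.60, limma adjusted p = 0.00228) led them. Under median of ratios 5 of the 17 were lower and 2 higher.

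Of the other high mobility group genes, 11 of 13 were tested, and 7 were lower and none higher at P7d against E18.5d, with a median of −0.44. *Hmgb2*, a chromatin protein of dividing cells, went from 44.2 to 23.5 FPKM (−0.89, limma adjusted p = 5.83e-05), *Hmgn1* from 63.6 to 35.1 (−0.84, limma adjusted p = 4.36e-05) and *Hmgn2* from 239 to 145 (−0.72, limma adjusted p = 0.000126). As with *Hmga2*, the step before P1d was the larger for *Hmgb2*, whose mean was 24.9 FPKM at P1d.

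Foetal growth genes known to decline after birth, a list named for that decline and so no independent evidence of it, had 15 of 17 tested genes lower and none higher at P7d against E18.5d, with a median of −1.45. *Dlk1* changed by −3.06 (limma adjusted p = 1.64e-07) and *Zim1* by −1.97 (limma adjusted p = 3.35e-05). The 9 values of *Dlk1* were repeated under another identifier. *Igf2* and *H19* belong to this list too. The list summed to 4348, 3261 and 1179 FPKM on average, 75% and 27.1% of E18.5d at P1d and P7d, beside 77.3% and 30.0% for the sum of the 3 *Igf2bp* genes. A few abundant genes carried this sum, *H19* (2181 FPKM before birth) and *Igf2* (714 FPKM) above all. Some other members took other courses, among them *Mycn*, with means of 6.67, 1.42 and 4.42 FPKM, and *Mdk*, with 64.3, 51.1 and 58.8, both named after their values were seen. Proliferation markers took another course. At P1d against E18.5d all 15 were lower (median −1.76), and 13 of 15 were higher at P7d than at P1d, with a median of 0.77. At P7d against E18.5d, 14 were lower, among them the mitotic genes *Bub1* (−1.46, limma adjusted p = 1.87e-05), *Birc5* (−1.35, limma adjusted p = 0.000201) and *Ccnb1* (−1.26, limma adjusted p = 1.54e-05). None of the 6 genes was called higher from P1d to P7d.

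**Figure D5:**
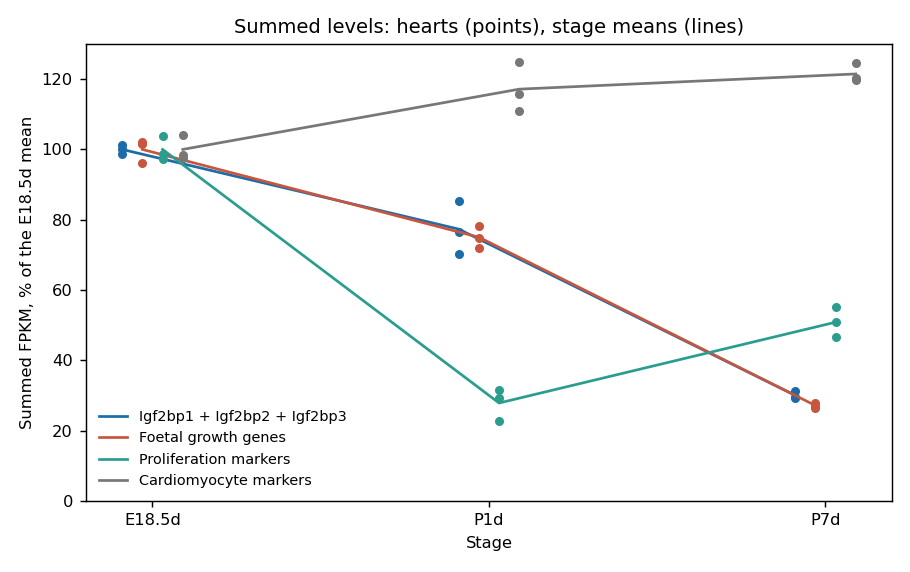
Summed FPKM as a percent of the E18.5d mean (vertical axis, from 0) against stage, with points for hearts and lines through stage means. The sum of the 3 *Igf2bp* genes and that of 18 foetal growth genes, most of it *H19* and *Igf2*, ran close together, while 15 proliferation markers dropped to 27.8% at P1d and stood at 50.8% at P7d, and 10 cardiomyocyte markers stood at 121% at P7d.

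Markers of other cells also moved between the stages, and their part in the levels of the 6 genes was not tested. Among the 13618 genes, 27.6% were lower and 18.4% higher at P1d against E18.5d, and 36.9% and 12.5% at P7d against E18.5d. At P7d against P1d the shares were 28.6% and 15.5%. At P1d against E18.5d, where *Igf2bp1* and *Hmga2* were called lower, 4 of 7 macrophage markers were higher (sum 65.6 to 82.2 FPKM before birth and 82.5 to 125 at P1d, median log2 change 0.52), and 3 of 8 fibroblast markers were lower (2035 to 2135 and 1714 to 2275 FPKM). In that comparison 3 of 7 epicardial markers were lower and 1 higher (87.9 to 101 and 76.6 to 96.6 FPKM), 2 of 7 endothelial markers were higher and 1 lower, 2 of 7 smooth muscle and pericyte markers were higher and 2 lower, 6 of 10 cardiomyocyte markers and 2 of 4 brown fat markers were higher, and of 8 erythroid markers 1 was higher and 1 lower. At P7d against E18.5d, 5 of 7 epicardial markers were lower and 1 higher (sum 87.9 to 101 FPKM at E18.5d and 63.5 to 72.1 at P7d), 3 of 8 fibroblast markers were higher and none lower (2035 to 2135 and 2747 to 2830 FPKM), 4 of 7 endothelial markers were higher and 2 lower (414 to 445 and 497 to 521 FPKM), and 3 of 7 smooth muscle and pericyte markers were higher and 2 lower (171 to 239 and 234 to 249 FPKM). Of 10 cardiomyocyte markers 6 were higher and 1 lower, of 7 macrophage markers 1 was higher and 1 lower (65.6 to 82.2 and 71.1 to 77.4 FPKM), and of 4 brown fat markers tested 3 were higher (23.0 to 25.6 and 48.4 to 54.2 FPKM). Of 8 erythroid markers tested 1 was higher and none lower. At P7d against P1d, 5 of 7 epicardial markers were lower and 1 higher, and 5 of 8 fibroblast markers were higher and none lower. Of 7 endothelial markers 2 were higher and 1 lower, of 7 smooth muscle and pericyte markers 4 and 2, and of 7 macrophage markers 1 and 2. Of 10 cardiomyocyte markers 3 were higher and 1 lower, of 4 brown fat markers 1 and 1, and of 8 erythroid markers 1 and 2. The 12 thymocyte markers summed to 2.07 FPKM or less in every heart, 1 of them at 0 throughout. The 8 lung and airway markers summed to 2.05 to 252 FPKM at E18.5d and 0.32 or less at P7d, and 4 of the 6 genes (all but *Lin28b* and *Hmga1*) were called lower at P7d against E18.5d without the 3 hearts high in them.

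The genes whose log2(FPKM + 1) ran most like each of the 6 over the 9 hearts, by Pearson's r among the 13618 genes that passed the filter, were *Gm8186* (r = 0.992), *Erbb2* (0.991) and *Grhl3* (0.987) for *Igf2bp1*. For *Igf2bp2* they were *Olfm1* (0.995), *Bbx* (0.994) and *Hif3a* (0.992), and for *Igf2bp3* they were *Cct4* (0.996), *Myh7* (0.994), the foetal myosin heavy chain gene of the mouse ventricle, and *Ryr3* (0.992). For *Hmga2* they were *Sarnp* (0.994), *C1galt1* (0.991) and *Yy1* (0.991). They were less close for *Hmga1*, with *Mvk* (0.964), *Mfsd5* (0.960) and *Cand1* (0.959), and for *Lin28b*, with *Xpo6* (0.971), *Mkln1* (0.964) and *B430010I23Rik* (0.956). With 3 stages of 3 hearts each, any gene that follows the same order of stages scores high, so these r values describe the 9 hearts and nothing else.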

How the data were processed

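RNA-seq of 9 C57BL/6J hearts was used, 3 each at E18.5d, P1d and P7d, grouped by their labels. Libraries were made from total RNA (Trizol, NEBNext Ultra kit). The authors deposited FPKM with 2 decimals for 48820 genes, 1 column per heart. The submitters' processing notes name STAR and the builds GRCm38 and mm10. The counting tool, the annotation and the use of strand are not given in the sources used here. Of the gene identifiers, 48144 matched GENCODE M21, which gave names, positions and 3′ untranslated regions.

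Values were transformed to log2(FPKM + 1). All 9 hearts entered 1 limma 3.58.1 fit (R 4.3.3, eBayes with trend, no covariate) of the 13618 genes averaging 1 FPKM or more, or, for *Lin28b* and *Hmga2*, of the 27255 genes above 0 in a heart, with p-values adjusted by Benjamini-Hochberg and called under 0.05. Changes are given ± SE. Ratios within hearts were compared by exact two-sided permutation tests (scipy 1.17.1), which with 3 hearts against 3 cannot go below 0.1. The labels call the hearts biological replicates, so p-values measure the spread between hearts. No 2 hearts held the same column. The depth was read from steps between low FPKM values, of which 88.3% to 90.3% per heart were whole multiples of 1 fragment, against 16.8% to 20.0% by chance. It ranged from 25.5 to 37.5 times 1e6 fragments at E18.5d, from 27.5 to 29.8 at P1d and from 36.5 to 45.0 at P7d, so that 3 fragments on *Hmga2* are worth at most 0.0336 FPKM, for counting error only. The fit and the depth estimate were tested on simulated data.

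The 6 genes and all lists were chosen with earlier results of these data known. From each pathway list, the text names up to 3 genes per direction with the largest called change at P7d against E18.5d whose hearts did not overlap, and otherwise says so, and for each of the 6 genes the 3 genes most correlated with it. *Actb*, *Lin28a* and *Malsu1* are named outside this rule. The replicate numbers were not treated as pairs, since deviations of hearts with the same number correlated above 0.1 in only 1 of 9 pairs of hearts (−0.05 to 0.11). The comparisons between stages were recomputed with a pseudocount of 0.1, without a filter, with a filter at 5 FPKM and with 4 other scalings. Other fits had no trend in eBayes, only the compared stages, a block for the replicate number or *Xist* as a covariate. A fit of only hearts with *Xist* was possible for P7d against E18.5d alone. Each heart was left out in turn and, chosen after seeing the data, the 3 hearts high in airway markers were left out. The second step minus the first was computed in the main fits only.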

Additional observations from a re-analysis of the deposited data

How the results depend on the processing

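The counts of the 6 genes lower and higher were within 1.5 times those reported under every alternative, with 1 exception: without the 3 hearts high in airway markers, 1 gene instead of 2 was lower at P1d against E18.5d (*Hmga2*). The falls of *Igf2bp1*, *Igf2bp2*, *Igf2bp3* and *Hmga2* from E18.5d to P7d kept direction and call in all 22 alternatives (20 for *Hmga2*, tested without the filter in any case), with log2 changes of −2.66 to −1.91, −1.41 to −1.12, −1.59 to −1.26 and −2.23 to −0.77. Those of the *Igf2bp* genes from P1d to P7d did so in all 21.

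*Lin28b* at P1d against E18.5d reversed without the airway-high hearts (−0.13), without P1d replicate 1 (−0.015) and without P1d replicate 3 (−0.042), and leaving out 1 heart at a time gave −0.042 to 0.18; it was not called in any of these. *Hmga1* at P7d against E18.5d lost its call under median of ratios (−0.19), quantile normalization (−0.22), equal sums of protein-coding nuclear genes (−0.21), only hearts with *Xist* (−0.27) and without the airway-high hearts (−0.20, limma adjusted p = 0.192). At P1d against E18.5d it gained a call with equal column sums (−0.36, limma adjusted p = 0.0313) and without E18.5d replicate 3 (−0.27, limma adjusted p = 0.0205). *Igf2bp3* gained a call in that comparison with *Xist* as a covariate (−0.35, limma adjusted p = 0.0459). The causes were not tested.

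With the replicate number as a block, the lower counts of the 6 genes stayed at 2, 5 and 3, and no call changed. A heart correlated best with its own number in 8 of 18 cases. Of the lists, the m6A genes lower at P7d against E18.5d went from 14 to 5 of 17 and the let-7 maturation genes from 10 to 2 of 13 with median of ratios or equal sums of protein-coding nuclear genes. Depth limits what can be said of *Hmga2* after birth (13 to 36 fragments) and of *Lin28b* (29 to 98).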

Other observations

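Outside the 6 genes, those with at least 4 matches to the let-7 seed in their 3′ untranslated region did not share 1 direction. They were picked after the counts were seen, and their changes are given as values. *Mcf2l*, a guanine nucleotide exchange factor gene with 7 matches, averaged 11.1 FPKM before birth and 16.8 at P7d (log2 change 0.55, limma adjusted p = 0.00368), and *Nudt12*, also with 7, from 3.59 to 4.79 (0.33, limma adjusted p = 0.0245). *Hic2*, with 4, rose from 2.99 to 5.71 FPKM at P1d (0.74, limma adjusted p = 0.000638) and fell to 2.55 at P7d (−0.91 from P1d, limma adjusted p = 0.000249). *Zbtb37*, with 4 in a region of 16999 bases, was lower at P7d than before birth (12.2 and 9.31 FPKM, −0.37, limma adjusted p = 0.0397). *Nr6a1*, with 8, had means of 1.07, 1.77 and 1.26 FPKM and passed the test in no comparison. *Trim71*, a classic let-7 target with 4 matches, was at a mean of 0.01 FPKM or less at every stage. *Trim6*, with 6, had means of 0.817, 1.49 and 0.397 FPKM. *D10Wsu102e*, with 4 in a region of 122583 bases, had 1.07, 0.793 and 0.68, and *Ptafr*, with 4, had 0.31, 0.447 and 0.707. These genes averaged less than 1 FPKM over the 9 hearts and were not in the fit used here.

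*Irs2*, listed among the let-7 targets, had the largest change of its list at P1d, from 4.19 to 19.95 FPKM and back to 5.9 at P7d (log2 changes 2.01 and −1.61, limma adjusted p = 2.28e-06 and 1.31e-05).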
